A study of Homo sapiens with 24 samples.

Results

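The expression of 39 genes of NF-kB signalling and inflammation was examined in 2 human neuroblastoma cell lines: the subunits of NF-kB, their inhibitors, adaptors of the tumour necrosis factor receptors, and cytokines, chemokines, adhesion molecules and other products whose genes NF-kB is known to control. The genes were chosen by name, and an array feature was taken for a gene when the platform annotation gave it that gene's symbol or an older one (CXCL8 was listed as IL8). Of the 39 genes, 38 were measured, out of 17199 named genes in all, by 52 of 44708 features. RELA, which encodes the p65 subunit, was not analysed here. SK-N-AS is a neuroblastoma line without MYCN amplification and IMR-32 is a line with it. In each line, cultures carrying the homeobox transcription factor HOXC9 were set against cultures carrying the control GFP (green fluorescent protein). Total RNA was hybridised to one-colour long-probe arrays. There were 4 groups of 6 arrays, SK-N-AS labelled HOXC9, SK-N-AS GFP, IMR-32 HOXC9 and IMR-32 GFP, each with 1 array per hour label (0, 6, 12, 24, 48 or 96 h). The labels do not say how the transgene was delivered or switched on, whether 0 h precedes its onset, whether a culture was 1 clone, or whether the hours came from separate cultures. Hours stand in for replicates. The p-values for HOXC9 against GFP measure how the difference between arrays of the same hour varied from hour to hour, which may be technical. Each gene had 1 estimate of this spread, shared by both lines and all hours. A gene flat near background in IMR-32, such as PTGS2 (differences of -0.07 to 0.04), thus has a smaller standard error in SK-N-AS. A gene that varied more in IMR-32, such as IL32 (0.12 to 3.36), has a larger standard error.

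NF-kB is a dimeric transcription factor built from NFKB1, NFKB2, REL, RELA and RELB products. IkB proteins such as the NFKBIA and NFKBIE products hold it in the cytoplasm until signals from tumour necrosis factor, interleukin-1 or Toll-like receptors lead to their breakdown. A slower, non-canonical branch processes the NFKB2 precursor into p52, which pairs with RELB, and it is held back by a complex of TRAF2, TRAF3 and the ubiquitin ligases BIRC2 and BIRC3. Many NF-kB targets feed back on the pathway, among them NFKBIA, TNFAIP3 (A20) and BIRC3, while others are secreted or displayed on the cell surface and signal to leukocytes. In neuroblastoma, NF-kB activity and inflammatory transcripts are known mainly from cells of the mesenchymal type.

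The HOXC9 probe followed its label in IMR-32 and went against it in SK-N-AS, so the SK-N-AS arrays are called arrays labelled HOXC9. HOXC9 was at 10.07 ± 0.20 in IMR-32 HOXC9 arrays and 5.98 ± 0.25 in IMR-32 GFP arrays (log2 intensity; SD, n = 6 each). It was at 11.74 ± 0.09 in HOXC9-labelled SK-N-AS arrays and 12.30 ± 0.16 in SK-N-AS GFP arrays, lower at each of the 6 hours. The HOXC9-labelled SK-N-AS arrays of 6, 12 and 24 h stood apart from those of 0, 48 and 96 h: over all features they correlated at 0.979 to 0.984 between the sets and at 0.989 or more within each set. Both sets are therefore given separately, each with 3 pairs of arrays, and IMR-32 with 6 pairs. Every array had a median of 114 units (log2 6.83) and a lower quartile of 9.68 units. No detection flags were used, so levels near the lowest value, log2 0.41, cannot be told from background, and precision is limited by how many arrays there are. Cell type was checked with marker genes. Of 8 measured noradrenergic neuroblastoma markers, 7 lay above the array median in SK-N-AS and 8 in IMR-32. All 9 fibroblast markers did so in SK-N-AS and 3 of 9 in IMR-32. Set against IMR-32 GFP arrays, SK-N-AS GFP arrays had 6 of the 8 noradrenergic markers lower and 2 higher (median difference -1.72). Of 10 mesenchymal neuroblastoma markers, 6 were higher and 2 lower in SK-N-AS GFP arrays (median difference 1.14). These differences passed an adjusted p under 0.05 (limma), as did 38.3% of all genes higher and 29.7% lower.

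In SK-N-AS, most of the genes that changed were higher in the arrays labelled HOXC9, among them BIRC3, ICAM1, IL1B and IL1A, while VCAM1 was lower. A gene was called at an adjusted p under 0.05 (limma, moderated test, Benjamini-Hochberg over all genes). At 6 to 24 h, 17 of the 38 genes were higher, against 24.3% of all genes tested, and 5 were lower, against 23.7%. At 0, 48 and 96 h, 16 were higher and 4 lower, against 18% and 18.2% of all genes. The median difference over the 38 genes was 0.51 at 6 to 24 h and 0.42 at 0, 48 and 96 h on the log2 scale, against -0.03 and -0.01 over all genes. In IMR-32, 7 of the genes were higher in HOXC9 arrays, against 19% of all genes, and 8 were lower, against 20.4%, shares near those of all genes. The IMR-32 median difference was -0.01, as it was over all genes. The levels of the groups did not overlap, with the HOXC9 label on the higher side, for 22, 18 and 4 of the 38 genes in the 3 comparisons (SK-N-AS at 6 to 24 h, SK-N-AS at 0, 48 and 96 h, IMR-32), against 31.8%, 19.4% and 12.2% of all genes. With the HOXC9 label on the lower side this held for 5 genes in each comparison, against 33.6%, 21.4% and 13.4%.

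Markers named for several cell types, neuroblastoma types included, moved in part with the SK-N-AS groups of these cell line cultures. Their part in the differences was not tested. All 9 fibroblast markers lay above the array median in both SK-N-AS groups. The summed level of the 9 fibroblast markers was 112325 to 146695 units in HOXC9-labelled SK-N-AS arrays and 65122.8 to 110030 units in SK-N-AS GFP arrays. Of these markers, 4 were higher and none lower in each set of hours. Over all genes, 24.3% were higher and 23.7% lower at 6 to 24 h, and 18% and 18.2% at 0, 48 and 96 h. In IMR-32 these shares were 19% and 20.4%. Several of the marker counts below lie near these shares. Of 10 mesenchymal neuroblastoma markers, 6 were higher and none lower in each set (median difference 1.00 at 6 to 24 h and 0.87 at 0, 48 and 96 h), and they summed to 166378 to 208581 units with the HOXC9 label and 160275 to 187122 units with GFP. In IMR-32, 2 of the 10 were higher and 4 lower. Of 8 measured noradrenergic markers, 4 were higher and 3 lower at 6 to 24 h, and 3 higher and 2 lower at 0, 48 and 96 h. In IMR-32, 1 of these 8 was higher and 4 were lower. Of 5 epithelial markers, 2 were higher and 1 lower at 6 to 24 h, and 3 were higher and none lower at 0, 48 and 96 h, with sums of 38223.9 to 61871.7 units in SK-N-AS labelled HOXC9 and 19689.6 to 61776.8 units in SK-N-AS GFP. The epithelial sum was 2438 to 3509 units in IMR-32 HOXC9 and 2340 to 68469.6 units in IMR-32 GFP arrays. The 10 monocyte and macrophage markers summed to 5801 to 8318 units in the arrays labelled HOXC9 and 4542 to 8372 units in the GFP arrays, with PTPRC, CD68 and FCER1G alone above the array median. The 8 endothelial markers summed to 228 to 463 units in the arrays labelled HOXC9 and 481 to 629 units in the GFP arrays, with TEK alone above the median, in GFP arrays. In bulk RNA, fewer cells of a type and less RNA per cell cannot be told apart.

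**Figure D1:**
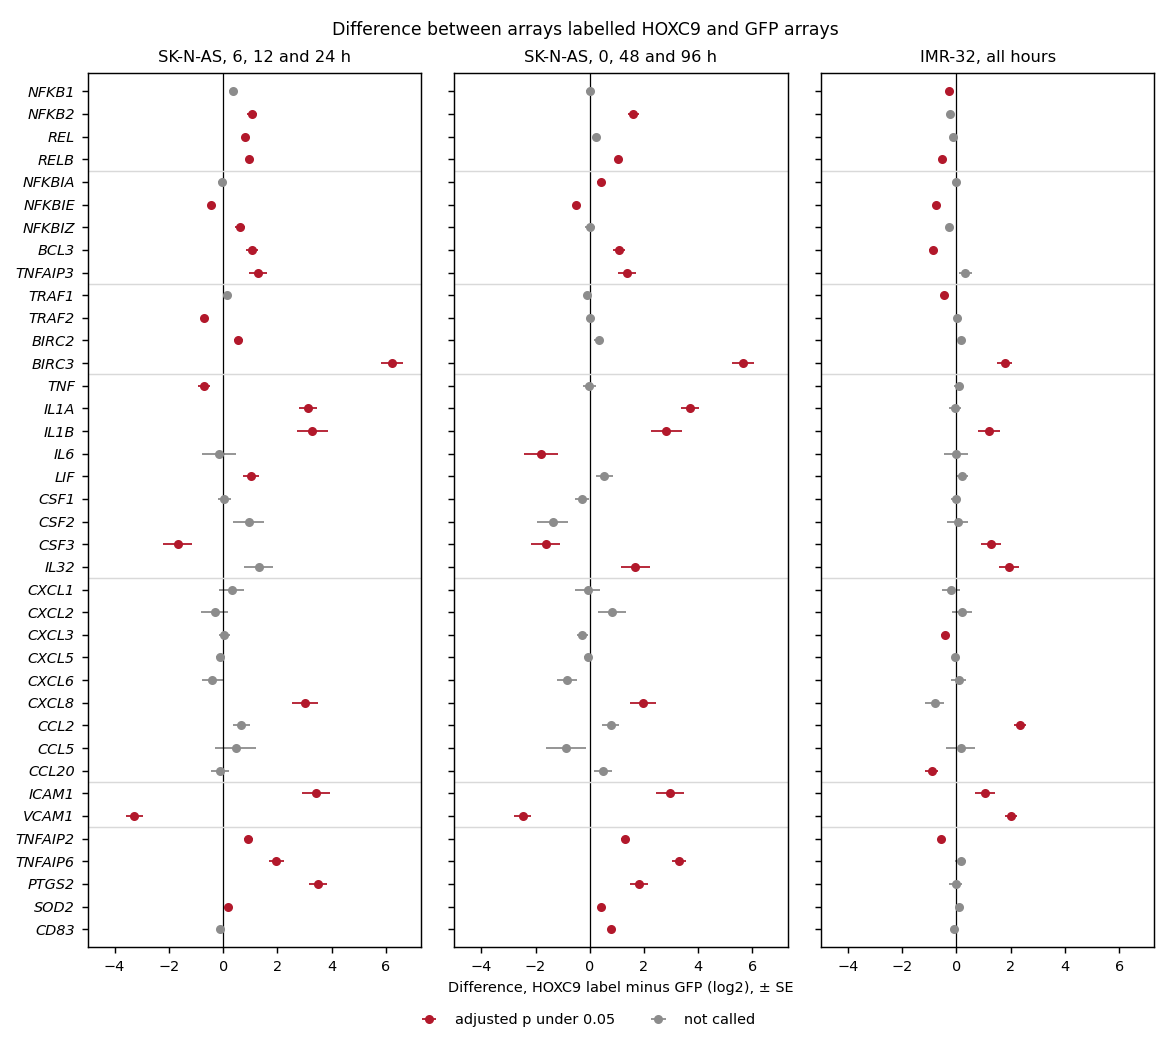
Difference in log2 intensity (arrays labelled HOXC9 minus GFP arrays, x axis, with SE bars) for the 38 genes, grouped by role from the subunits at the top to other targets at the bottom, in SK-N-AS at 6, 12 and 24 h, SK-N-AS at 0, 48 and 96 h, and IMR-32 over all hours. Red points passed an adjusted p under 0.05, and BIRC3 lies furthest right in both SK-N-AS panels, at 6.24 and 5.65.

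The promoters of 6 of the genes are shown because their genes behaved differently although each holds an NF-kB type motif. By their brightest probes, BIRC3, ICAM1 and CXCL8 were higher in both sets of SK-N-AS hours and VCAM1 was lower in both. IL6 was called lower only at 0, 48 and 96 h. CXCL5 was called in none of the HOXC9 comparisons by its brightest probe. Each sequence is the 250 bases before the transcription start in RefSeq (GRCh38.p14), written 5′ to 3′ in the direction of transcription. Capitals mark matches, on either strand, to the kappa B consensus or to GGAATTTCC, a variant that can overlap it.
BIRC3: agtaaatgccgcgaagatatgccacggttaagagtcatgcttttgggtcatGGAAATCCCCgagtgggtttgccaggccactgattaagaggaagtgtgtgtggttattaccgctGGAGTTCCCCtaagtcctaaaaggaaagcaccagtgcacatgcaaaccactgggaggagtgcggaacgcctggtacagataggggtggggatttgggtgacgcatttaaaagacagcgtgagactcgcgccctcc
ICAM1: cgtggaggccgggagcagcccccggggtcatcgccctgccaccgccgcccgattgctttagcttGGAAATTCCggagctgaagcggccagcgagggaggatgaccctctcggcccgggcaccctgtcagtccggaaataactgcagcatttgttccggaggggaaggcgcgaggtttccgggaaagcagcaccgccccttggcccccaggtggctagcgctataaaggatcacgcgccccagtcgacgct
CXCL8: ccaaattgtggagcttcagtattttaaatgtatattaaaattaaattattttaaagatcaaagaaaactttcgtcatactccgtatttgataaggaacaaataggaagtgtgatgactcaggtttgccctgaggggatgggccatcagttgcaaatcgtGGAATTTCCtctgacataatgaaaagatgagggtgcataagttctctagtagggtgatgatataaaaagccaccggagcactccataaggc
VCAM1: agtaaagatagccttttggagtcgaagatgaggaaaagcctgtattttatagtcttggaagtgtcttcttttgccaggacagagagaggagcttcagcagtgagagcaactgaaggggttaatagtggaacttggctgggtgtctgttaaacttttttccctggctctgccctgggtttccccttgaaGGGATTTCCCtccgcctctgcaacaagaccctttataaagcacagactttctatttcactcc
IL6: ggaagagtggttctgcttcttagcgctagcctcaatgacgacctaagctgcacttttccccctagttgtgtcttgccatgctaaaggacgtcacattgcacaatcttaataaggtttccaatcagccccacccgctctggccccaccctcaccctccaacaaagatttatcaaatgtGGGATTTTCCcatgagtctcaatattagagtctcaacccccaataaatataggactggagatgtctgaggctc
CXCL5: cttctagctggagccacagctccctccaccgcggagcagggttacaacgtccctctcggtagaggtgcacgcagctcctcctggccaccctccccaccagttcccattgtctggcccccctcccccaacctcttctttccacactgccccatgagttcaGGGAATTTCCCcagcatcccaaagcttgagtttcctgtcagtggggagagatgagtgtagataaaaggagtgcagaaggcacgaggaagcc
These stretches lie at chr11:102317234-102317483 (plus strand, BIRC3), chr19:10270870-10271119 (plus, ICAM1), chr4:73740319-73740568 (plus, CXCL8), chr1:100719492-100719741 (plus, VCAM1), chr7:22726950-22727199 (plus, IL6) and chr4:73998678-73998927 (minus, CXCL5). Counted from the start, the matches begin at -199 and -135 in BIRC3, -186 in ICAM1, -91 in CXCL8, -62 in VCAM1 and -73 in IL6. In CXCL5 they begin at -91 and -90 and overlap.

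Across the table, 32 of the 39 genes had a promoter entry, and 19 of the 32 held either motif within 250 bases before a start, with some genes having more than 1 start. Of all 35116 promoters of this length, 5.39% held either motif. The 2 figures differ in unit: a gene counted if any of its starts held a motif (46 promoters for the 32 genes), while the share counts promoters. The genes were also chosen as known parts or targets of NF-kB, so a larger share among them is no result of these data. The consensus was found in 17 of the 32 genes and in 5.21% of all promoters, and GGAATTTCC in 11 of the 32 and in 0.41%. CXCL1, CXCL2, CXCL3, CXCL5 and CXCL6 held both motifs. By their brightest probes, none of these chemokine genes was called in either set of SK-N-AS hours. The dimmer CXCL2 probe was higher at every SK-N-AS hour, by 1.36 to 1.90, and was called in both sets over all probes. In SK-N-AS at 6 to 24 h, 7 of the 19 genes with a motif were higher and 1 was lower, while 8 of the 12 measured genes with neither were higher and 2 lower (24.3% and 23.7% of all genes). At 0, 48 and 96 h the counts were 8 higher and 2 lower of 19 with a motif, and 7 higher and none lower of 12 without (18% and 18.2% of all genes). A match describes the letters of this window, and its absence says nothing of binding elsewhere.

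Among the subunits, the genes of the non-canonical branch were higher in both sets of SK-N-AS hours, and RELB was lower in IMR-32. RELB, whose product pairs with p52, was at 13.64 in each of the HOXC9-labelled SK-N-AS arrays of 6, 12 and 24 h, against 12.73, 12.76 and 12.57 in the GFP arrays. At 0, 48 and 96 h it was at 14.36, 14.37 and 14.53 in the arrays labelled HOXC9, against 13.08, 13.51 and 13.57 in the GFP arrays. Neither set overlapped, and the differences were 0.95 ± 0.10 (SE; adjusted p = 1.3e-05) and 1.04 ± 0.10 (adjusted p = 1.29e-05). In IMR-32, RELB ranged over 10.48, 10.65 and 10.72 (lowest, median and highest) in HOXC9 arrays, against 10.97, 11.08 and 11.43 in GFP arrays. It was lower in HOXC9 arrays at 6 of 6 hours, by -0.52 ± 0.07 (adjusted p = 0.000164). NFKB2, which encodes the p52 precursor, was at 8.08, 8.12 and 8.10 at 6 to 24 h in HOXC9-labelled SK-N-AS arrays, against 6.87, 7.09 and 7.15 in the GFP arrays. The other hours gave 8.66, 8.77 and 8.54 in the arrays labelled HOXC9, against 6.65, 6.79 and 7.69 in the GFP arrays. No overlap was seen in either set, with differences of 1.06 ± 0.20 (adjusted p = 0.00095) and 1.61 ± 0.20 (adjusted p = 0.0001). In IMR-32, NFKB2 differed by -0.22 ± 0.14 and was not called.

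The canonical subunits behaved otherwise. REL was at 7.28, 7.14 and 7.26 in HOXC9-labelled SK-N-AS arrays at 6, 12 and 24 h, against 6.40, 6.27 and 6.55 in GFP arrays, higher by 0.82 ± 0.11 (adjusted p = 8.64e-05). At 0, 48 and 96 h the REL difference was 0.22 ± 0.11 and was not called. NFKB1, the gene of the p50 precursor, stayed uncalled in both sets, at 0.36 ± 0.14 (adjusted p = 0.0584) and 0.00 ± 0.14. Its other probe read 4.59, 4.61 and 4.36 in the arrays labelled HOXC9 of 6 to 24 h, against 6.33, 6.85 and 6.71 in the GFP arrays. That probe was lower by -2.11 ± 0.25 (adjusted p = 4.62e-05, over all probes, of which 42.5% were called at these hours, 27.2% at the other hours and 36.8% in IMR-32), so the probes of NFKB1 disagreed at these hours and its direction is uncertain. In IMR-32, NFKB1 was lower by -0.29 ± 0.10 (adjusted p = 0.0425) with groups that did not overlap, and it was not called without any 1 of the 0, 6, 12, 24 or 48 h arrays (-0.24 to -0.32).

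Of the 5 inhibitors and nuclear IkB proteins, BCL3 and TNFAIP3 were higher in both sets of SK-N-AS hours and NFKBIE was lower in both. BCL3 encodes a nuclear IkB protein that binds p50 and p52 on DNA. It was at 13.43, 13.66 and 13.80 in the arrays labelled HOXC9 of 6, 12 and 24 h, against 12.72, 12.44 and 12.50 in the GFP arrays. The 0, 48 and 96 h values were 13.85, 13.75 and 13.62 in the arrays labelled HOXC9, against 12.19, 12.64 and 13.17 in the GFP arrays. All values labelled HOXC9 lay above all GFP values, by 1.08 ± 0.22 (adjusted p = 0.00195) and 1.07 ± 0.22 (adjusted p = 0.0033). In IMR-32 the groups did not overlap in the other direction: BCL3 ranged over 5.13, 5.32 and 5.48 in HOXC9 arrays, against 5.87, 6.18 and 6.49 in GFP arrays (-0.86 ± 0.16; adjusted p = 0.00149). TNFAIP3, a ubiquitin-editing brake on the pathway, was at 4.39, 3.90 and 4.26 in the arrays labelled HOXC9, against 3.55, 2.42 and 2.72 in the GFP arrays, at 6 to 24 h. It was at 4.45, 4.67 and 5.15 in the arrays labelled HOXC9, against 3.53, 3.45 and 3.14 in the GFP arrays, at 0, 48 and 96 h. Neither set overlapped, with differences of 1.29 ± 0.33 (adjusted p = 0.00776) and 1.38 ± 0.33 (adjusted p = 0.00781). At 6 to 24 h TNFAIP3 was not called without the 12 h (1.19) or 24 h arrays (1.16), and with 16 units added before the log2 the differences were 0.53 and 0.71.

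NFKBIE, which encodes IkB epsilon, was lower in all 3 comparisons as labelled. The HOXC9 probe goes against the SK-N-AS labels, and with these exchanged NFKBIE would go opposite ways in the lines. It was at 10.13, 10.13 and 10.25 in the arrays labelled HOXC9 of 6 to 24 h, against 10.59, 10.54 and 10.75 in the GFP arrays. It was at 10.51, 10.46 and 10.59 in the arrays labelled HOXC9 at 0, 48 and 96 h, against 10.81, 11.12 and 11.11 in the GFP arrays. The groups did not overlap, at -0.46 ± 0.09 (adjusted p = 0.00169) and -0.49 ± 0.09 (adjusted p = 0.00174). In IMR-32, NFKBIE ranged over 10.77, 10.90 and 10.95 in HOXC9 arrays, against 11.30, 11.65 and 11.87 in GFP arrays, lower at 6 of 6 hours by -0.75 ± 0.06 (adjusted p = 7.36e-06). NFKBIA, which encodes IkB alpha and is itself an NF-kB target, was called only at 0, 48 and 96 h in SK-N-AS. It was at 13.95, 13.90 and 14.22 in the arrays labelled HOXC9, against 13.57, 13.98 and 13.26 in the GFP arrays, so the groups overlapped (0.42 ± 0.14; adjusted p = 0.0415). Its call did not hold without the 0 h (0.44) or 96 h arrays (0.15), and without the 48 h arrays the difference was 0.67. NFKBIZ, another nuclear IkB protein, was higher at 6 to 24 h by 0.61 ± 0.18 (adjusted p = 0.0174), a call lost without the 6, 12 or 24 h arrays (0.69, 0.64 and 0.50), and differed by 0.01 ± 0.18 at 0, 48 and 96 h.

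BIRC3 had the largest difference of the 38 genes in both sets of SK-N-AS hours. It encodes cIAP2, a ubiquitin ligase of the tumour necrosis factor receptor complex that also restrains cell death. BIRC3 was at 8.55, 8.79 and 8.97 in the arrays labelled HOXC9 of 6, 12 and 24 h, against 2.83, 2.56 and 2.19 in the GFP arrays. Values of 0, 48 and 96 h were 8.57, 8.91 and 9.63 in the arrays labelled HOXC9, against 3.78, 3.37 and 3.03 in the GFP arrays. Every array labelled HOXC9 thus stood far above every GFP array, by 6.24 ± 0.40 (adjusted p = 5.82e-07) and 5.65 ± 0.40 (adjusted p = 2.04e-06). The GFP levels lay below or near the lower quartile of the arrays, and with 16 units added before the log2 the differences were 4.37 and 4.35. In IMR-32, BIRC3 ranged over 1.04, 2.84 and 3.40 in HOXC9 arrays, against 0.68, 0.80 and 0.90 in GFP arrays. It did not overlap there either and was higher at 6 of 6 hours, by 1.77 ± 0.29 (adjusted p = 0.000697). All the IMR-32 levels were near background, and with 16 units added before the log2 the IMR-32 difference was 0.34 and was not called.

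BIRC2, which encodes cIAP1 and is the next protein-coding gene to BIRC3 on chromosome 11, did not follow it in size. It was at 10.79, 10.72 and 10.60 in the arrays labelled HOXC9 of 6 to 24 h, against 10.02, 10.19 and 10.22 in the GFP arrays. BIRC2 was higher by 0.56 ± 0.17 (adjusted p = 0.0205), was not called without the 6 h (0.45) or 12 h arrays (0.57), and differed by 0.32 ± 0.17 at 0, 48 and 96 h. TRAF2, the adaptor that recruits both ligases, was at 11.30, 11.38 and 11.29 in the arrays labelled HOXC9 of 6 to 24 h, against 12.05, 12.00 and 12.03 in the GFP arrays. The other set of hours read 12.09, 12.07 and 12.07 in the arrays labelled HOXC9, against 12.02, 12.26 and 11.97 in the GFP arrays. TRAF2 was therefore lower, without overlap, at 6 to 24 h alone (-0.70 ± 0.09; adjusted p = 9.08e-05), against -0.01 ± 0.09 in the other set. TRAF1, an NF-kB target that binds TRAF2, was called only in IMR-32, where it ranged over 6.59, 6.86 and 6.94 in HOXC9 arrays, against 7.14, 7.29 and 7.49 in GFP arrays. The TRAF1 groups did not overlap (-0.47 ± 0.08; adjusted p = 0.000899), and its other probe was lower too, by -1.36 ± 0.33 (adjusted p = 0.00886, over all probes). In SK-N-AS at 0, 48 and 96 h that other probe was higher by 1.47 ± 0.47 (adjusted p = 0.0394, over all probes) while the brighter one differed by -0.09 ± 0.11.

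**Figure D2:**
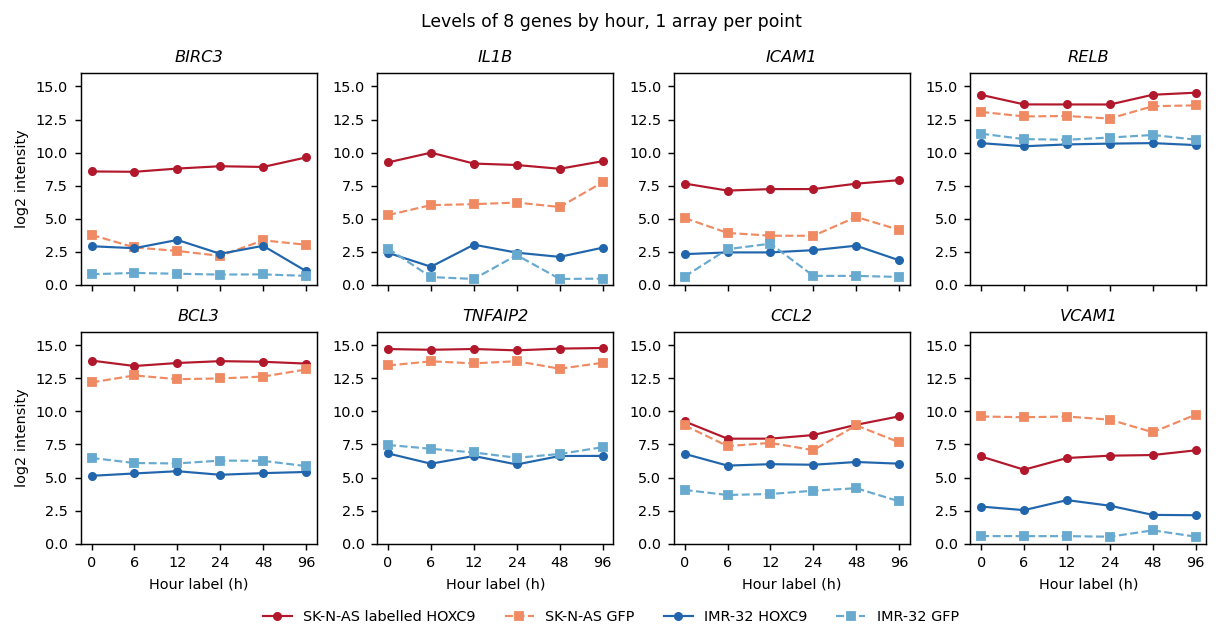
Log2 intensity (y axis) of 8 genes at each hour label (x axis, evenly spaced) in HOXC9-labelled SK-N-AS arrays and SK-N-AS GFP, IMR-32 HOXC9 and IMR-32 GFP arrays, 1 array per point. BIRC3 stays at 8.55 or above in HOXC9-labelled SK-N-AS arrays and at 3.78 or below in all other arrays, VCAM1 is the gene whose SK-N-AS GFP points lie above those labelled HOXC9, and RELB, BCL3 and TNFAIP2 have their SK-N-AS and IMR-32 groups in opposite order.

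Among the 9 cytokines, both interleukin-1 genes were higher in SK-N-AS at every hour. IL1A and IL1B are neighbours on chromosome 2, and both products signal through the interleukin-1 receptor to NF-kB. IL1B was at 10, 9.17 and 9.06 in the arrays labelled HOXC9 of 6, 12 and 24 h, against 6.03, 6.10 and 6.22 in the GFP arrays. In the other set it was at 9.26, 8.78 and 9.35 in the arrays labelled HOXC9, against 5.27, 5.89 and 7.75 in the GFP arrays. Neither set overlapped, with differences of 3.29 ± 0.58 (adjusted p = 0.00069) and 2.82 ± 0.58 (adjusted p = 0.00309). IL1A was at 5.78, 5.31 and 5.20 in the arrays labelled HOXC9 at 6 to 24 h, against 2.04, 2.88 and 1.97 in the GFP arrays. It was at 5.10, 5.40 and 6.24 in the arrays labelled HOXC9 at 0, 48 and 96 h, against 0.45, 1.50 and 3.74 in the GFP arrays. IL1A was higher without overlap by 3.13 ± 0.33 (adjusted p = 1.77e-05) and 3.69 ± 0.33 (adjusted p = 1.03e-05), and by 1.49 and 1.60 with 16 units added. In IMR-32, IL1A lay between 0.41 and 0.85 on all 12 arrays, near background. IL1B ranged over 1.37, 2.43 and 3.04 in IMR-32 HOXC9 arrays, against 0.45, 0.53 and 2.74 in GFP arrays. These groups overlapped, and the difference of 1.21 ± 0.41 (adjusted p = 0.0371) was not called without the 6, 12, 48 or 96 h arrays (0.93 to 1.29) or with 16 units added (0.19).

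The other cytokines were mixed. IL32, a cytokine made by lymphocytes and epithelial cells, was at 7.39, 7.68 and 7.71 in HOXC9-labelled SK-N-AS arrays of 6 to 24 h, against 6.25, 6.20 and 6.40 in the GFP arrays. It was at 8.73, 8.32 and 8.65 in the arrays labelled HOXC9 at 0, 48 and 96 h, against 7.40, 7.17 and 6.08 in the GFP arrays. Neither set overlapped, yet only the second was called, at 1.68 ± 0.53 (adjusted p = 0.0287), against 1.31 ± 0.53 (adjusted p = 0.0617) in the first. The second call was lost without the 0, 48 or 96 h arrays (1.86, 1.95 and 1.24) and when the SK-N-AS arrays of 6 to 24 h were left out of the fit. In IMR-32, IL32 ranged over 3.20, 3.81 and 4.82 in HOXC9 arrays, against 0.51, 2.36 and 3.08 in GFP arrays. It was higher without overlap at 6 of 6 hours, by 1.92 ± 0.37 (adjusted p = 0.0022), or by 0.61 with 16 units added. LIF, a cytokine of the interleukin-6 family, was higher in SK-N-AS at 6 to 24 h by 1.03 ± 0.31 (adjusted p = 0.016), was not called without the 6 h arrays (0.70), and differed by 0.54 ± 0.31 at 0, 48 and 96 h. The dimmer LIF probe was not called, at 0.25 ± 0.64 at 6 to 24 h, where it was lower at 2 of 3 hours, and -0.70 ± 0.64 at 0, 48 and 96 h.

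IL6, TNF and CSF3 were lower in SK-N-AS where they were called. IL6, the acute-phase cytokine, was at 3.26, 5.15 and 4.87 in the arrays labelled HOXC9 of 0, 48 and 96 h, against 6.06, 6.02 and 6.60 in the GFP arrays. The groups did not overlap (-1.80 ± 0.63; adjusted p = 0.0446), but the call was lost without the 0, 48 or 96 h arrays (-1.29, -2.26 and -1.83). At 6 to 24 h IL6 differed by -0.15 ± 0.63. It was lower at 6 and 12 h (-1.39 and -1.25) and higher at 24 h (2.21), where the GFP array was low, at 3.29. TNF, the founding ligand of the pathway, was at 3.73, 3.88 and 4.36 in the arrays labelled HOXC9 of 6 to 24 h, against 4.36, 4.96 and 4.73 in the GFP arrays. It was lower by -0.69 ± 0.23 (adjusted p = 0.0264), or by -0.39 with 16 units added, was not called without the 6 h (-0.73) or 12 h arrays (-0.50), and differed by -0.01 ± 0.23 in the other set. A second TNF probe of like brightness was not called, at -0.12 ± 0.63 at 6 to 24 h, where it was higher at 2 of 3 hours, and -0.49 ± 0.63 in the other set, so the lower TNF level rests on 1 probe. CSF3, the granulocyte growth factor, was below the lower quartile in every group mean. It was lower in both sets of SK-N-AS hours, by -1.68 ± 0.53 (adjusted p = 0.0212) and -1.63 ± 0.53 (adjusted p = 0.0325), and higher in IMR-32, by 1.28 ± 0.37 (adjusted p = 0.0191). With 16 units added these were -0.31, -0.26 and 0.21, the second not called. The CSF3 calls were lost without the 12 h (-1.21) or 24 h arrays (-1.76), without the 48 h (-1.21) or 96 h arrays (-1.63), and in IMR-32 without the 6, 24 or 48 h arrays (1.17, 1.08 and 1.07). CSF1 and CSF2, growth factors of macrophages and granulocytes, were not called in any HOXC9 comparison by their brightest probes. The probes of CSF1 disagreed: the dimmer one was higher in IMR-32 HOXC9 arrays by 1.84 ± 0.34 (adjusted p = 0.00183, over all probes), at 5 of 6 hours. In SK-N-AS that CSF1 probe was higher at 6 of 6 hours without overlap in either set, though uncalled, by 0.83 ± 0.48 (adjusted p = 0.196) and 1.40 ± 0.48 (adjusted p = 0.0521), over all probes.

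Most of the chemokines were not called in SK-N-AS. The 7 CXCL and CCL genes CXCL1, CXCL2, CXCL3, CXCL5, CXCL6, CCL5 and CCL20, which attract neutrophils, lymphocytes or monocytes, were called in neither set of SK-N-AS hours. Their brightest probes differed by -0.39 to 0.46 at 6 to 24 h and by -0.88 to 0.82 at 0, 48 and 96 h. CXCL5 was the one among them above the array median, at 8.40 to 8.53 in HOXC9-labelled SK-N-AS arrays, 8.19 to 8.88 in SK-N-AS GFP, 8.33 to 9.20 in IMR-32 HOXC9 and 8.61 to 9.14 in IMR-32 GFP arrays. Its groups overlapped in each comparison, and its dimmer probe, near background, was lower in IMR-32 by -0.73 ± 0.24 (adjusted p = 0.0355, over all probes). CXCL1, CXCL2 and CXCL3 are close copies of each other, so their probe signals are uncertain, and the probes of CXCL2 disagreed. The dimmer CXCL2 probe was at 2.59, 2.49 and 2.84 in the arrays labelled HOXC9 of 6 to 24 h, against 1.23, 0.60 and 1.07 in the GFP arrays, higher by 1.68 ± 0.11 (adjusted p = 6.75e-07, over all probes). It was also higher at 0, 48 and 96 h, by 1.56 ± 0.11 (adjusted p = 2.79e-06, over all probes), with all levels below the array median.

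CXCL8, the neutrophil chemoattractant interleukin-8, was the exception. It was at 4.44, 3.83 and 3.16 in HOXC9-labelled SK-N-AS arrays of 6, 12 and 24 h, against 0.69, 0.83 and 0.87 in the GFP arrays. In the 0, 48 and 96 h set it was at 4.29, 3.63 and 4.35 in the arrays labelled HOXC9, against 2.40, 3.06 and 0.94 in the GFP arrays. No values overlapped, and the differences were 3.01 ± 0.48 (adjusted p = 0.000372) and 1.96 ± 0.48 (adjusted p = 0.00895). The second was 1.23 and uncalled without the 96 h arrays, and with 16 units added they were 0.78 and 0.66. The dimmer CXCL8 probe differed by 0.30 ± 0.53 and -0.46 ± 0.53. In IMR-32, CXCL8 was lower at 6 of 6 hours, at 0.65, 0.72 and 1.86 in HOXC9 arrays, against 1.05, 1.60 and 2.84 in GFP arrays, but was not called (-0.81 ± 0.34; adjusted p = 0.0831). Its neighbour on chromosome 4, CXCL6, was near background throughout, between 0.42 and 2.53 on the 24 arrays.

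CCL2, the monocyte chemoattractant MCP-1, was the one chemokine called higher in IMR-32. It ranged over 5.90, 6.03 and 6.79 in IMR-32 HOXC9 arrays, against 3.20, 3.88 and 4.20 in GFP arrays. The groups were separated by more than 1 log2 unit and the difference was 2.33 ± 0.23 (5.04-fold; adjusted p = 1.99e-05), higher at 6 of 6 hours, or 1.53 with 16 units added. In SK-N-AS, CCL2 was at 7.94, 7.94 and 8.21 at 6 to 24 h in the arrays labelled HOXC9, against 7.38, 7.62 and 7.07 in the GFP arrays. It was at 9.25, 8.99 and 9.63 in the arrays labelled HOXC9 at 0, 48 and 96 h, against 8.95, 8.95 and 7.67 in the GFP arrays. Neither set overlapped, but neither difference was called (0.68 ± 0.32 and 0.77 ± 0.32; adjusted p = 0.11 and 0.0867). In IMR-32, CCL20 and CXCL3 were lower, by -0.92 ± 0.23 (adjusted p = 0.0099) and -0.41 ± 0.15 (adjusted p = 0.0472), with overlapping groups. The CXCL3 call did not hold without any 1 of the 0, 6, 12, 24 or 48 h arrays (-0.29 to -0.47), and CCL20 lay near background, at -0.16 with 16 units added.

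The adhesion molecules moved in opposite directions in SK-N-AS. ICAM1 and VCAM1 are surface proteins through which leukocytes bind to activated endothelium, and both genes are classical NF-kB targets. VCAM1 was at 5.59, 6.48 and 6.66 in HOXC9-labelled SK-N-AS arrays of 6, 12 and 24 h, against 9.56, 9.61 and 9.38 in the GFP arrays. VCAM1 was at 6.59, 6.70 and 7.06 in the arrays labelled HOXC9 at 0, 48 and 96 h, against 9.62, 8.43 and 9.76 in the GFP arrays. Every array labelled HOXC9 lay below every GFP array, and VCAM1 was lower by -3.28 ± 0.32 (adjusted p = 1.15e-05) and -2.48 ± 0.32 (adjusted p = 0.000168). Its dimmer probe was also lower, by -2.62 ± 0.19 (adjusted p = 1.25e-06, over all probes) and -1.29 ± 0.19 (adjusted p = 0.000519, over all probes). In IMR-32, VCAM1 ranged over 2.15, 2.67 and 3.30 in HOXC9 arrays, against 0.53, 0.57 and 1.01 in GFP arrays. It was higher without overlap, by 2.01 ± 0.23 (adjusted p = 6.15e-05), at levels near background. With 16 units added that difference was 0.35 and not called, and the dimmer probe differed by 0.15 ± 0.13.

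ICAM1 was at 7.13, 7.24 and 7.24 in HOXC9-labelled SK-N-AS arrays of 6, 12 and 24 h, against 3.93, 3.72 and 3.71 in the GFP arrays. At 0, 48 and 96 h ICAM1 was at 7.66, 7.65 and 7.92 in the arrays labelled HOXC9, against 5.06, 5.13 and 4.16 in the GFP arrays. It was higher without overlap, by 3.42 ± 0.51 (adjusted p = 0.000244) and 2.96 ± 0.51 (adjusted p = 0.00116). In IMR-32, ICAM1 ranged over 1.86, 2.45 and 2.96 in HOXC9 arrays, against 0.60, 0.68 and 3.11 in GFP arrays, and the groups overlapped because GFP arrays of 6 and 12 h lay at 2.70 and 3.11. The IMR-32 difference of 1.05 ± 0.36 (adjusted p = 0.0417) was not called without the 0, 24, 48 or 96 h arrays (0.80 to 1.00), or with 16 units added (0.15).

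All 5 of the other targets were higher in SK-N-AS at 0, 48 and 96 h (18% of all genes), and 4 of them at 6 to 24 h (24.3% of all genes). TNFAIP2, a tumour necrosis factor-induced gene, was at 14.66, 14.72 and 14.62 in the arrays labelled HOXC9 of 6 to 24 h, against 13.79, 13.63 and 13.80 in the GFP arrays. It was at 14.72, 14.75 and 14.80 in the arrays labelled HOXC9 at 0, 48 and 96 h, against 13.47, 13.23 and 13.68 in the GFP arrays. The groups did not overlap, with differences of 0.93 ± 0.16 (adjusted p = 0.000574) and 1.29 ± 0.16 (adjusted p = 0.000106). In IMR-32, TNFAIP2 ranged over 5.99, 6.63 and 6.82 in HOXC9 arrays, against 6.50, 7.04 and 7.47 in GFP arrays. It was lower at 6 of 6 hours, by -0.56 ± 0.11 (adjusted p = 0.00265), although the groups overlapped. TNFAIP6, whose product TSG-6 binds hyaluronan in inflamed matrix, was at 5.67, 5.45 and 5.25 in HOXC9-labelled SK-N-AS arrays of 6 to 24 h, against 3.14, 3.41 and 3.92 in the GFP arrays. It was at 5.03, 4.87 and 4.99 in the arrays labelled HOXC9 at 0, 48 and 96 h, against 1.94, 1.16 and 1.93 in the GFP arrays. TNFAIP6 was higher by 1.96 ± 0.26 (adjusted p = 0.000107) and 3.29 ± 0.26 (adjusted p = 4.98e-06), with no overlap, and by 1.13 and 1.29 with 16 units added.

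PTGS2, the inducible cyclooxygenase of prostaglandin synthesis, was at 5.20, 3.50 and 3.27 in HOXC9-labelled SK-N-AS arrays of 6, 12 and 24 h, against 0.45, 0.50 and 0.54 in the GFP arrays. In the other set PTGS2 was at 2.86, 2.65 and 2.95 in the arrays labelled HOXC9, against 0.46, 0.49 and 2.06 in the GFP arrays. Neither set overlapped, at 3.50 ± 0.34 (adjusted p = 1.14e-05) and 1.82 ± 0.34 (adjusted p = 0.00196). All levels were below the array median, and with 16 units added the differences were 0.94 and 0.34, the second not called. The dimmer PTGS2 probe was higher at 6 to 24 h by 2.28 ± 0.28 (adjusted p = 6.47e-05, over all probes) and differed by 0.05 ± 0.28 at 0, 48 and 96 h. SOD2, the mitochondrial superoxide dismutase, was higher by 0.20 ± 0.07 (adjusted p = 0.0281) and 0.43 ± 0.07 (adjusted p = 0.000513). Its dimmer probe changed sign, at -0.36, 0.23 and 0.36 at 6, 12 and 24 h and -0.62, 0.51 and 1.16 at 0, 48 and 96 h. The SOD2 differences thus rest on 1 probe. The first SOD2 call was lost without the 6, 12 or 24 h arrays (0.24, 0.19 and 0.16) and when each array was centred on its median (0.12). CD83, a surface protein of mature dendritic cells, was at 9.19, 9.16 and 9.26 in the arrays labelled HOXC9 of 0, 48 and 96 h, against 8.65, 8.53 and 8.13 in the GFP arrays. It was higher there by 0.77 ± 0.11 (adjusted p = 0.000262) and differed by -0.11 ± 0.11 at 6 to 24 h.

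**Figure D3:**
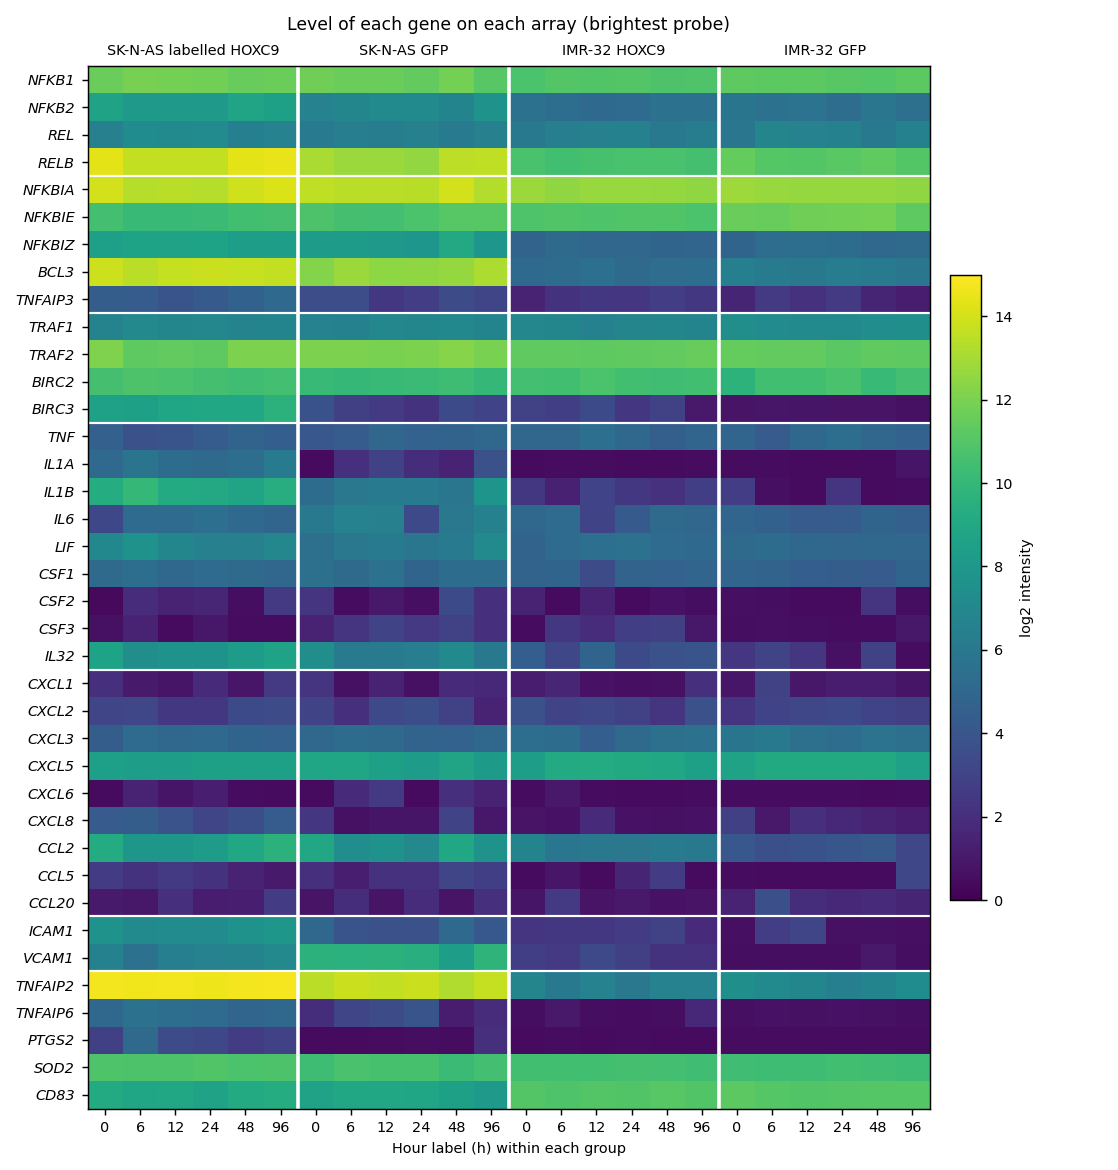
Log2 intensity (colour) of the brightest probe of each of the 38 genes (rows, grouped by role) on each of the 24 arrays (columns, by hour within SK-N-AS labelled HOXC9, SK-N-AS GFP, IMR-32 HOXC9 and IMR-32 GFP). BIRC3, IL1A, ICAM1 and PTGS2 are brighter in the first block than in the second, VCAM1 is dimmer, and 16 of the 38 genes have every group mean below the array median of 6.83; colours are not comparable between genes.

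The sets of SK-N-AS hours differed for 5 of the 38 genes, 2 in the positive direction, against 13% of all genes tested, and 3 in the negative, against 15.1%. The difference between arrays labelled HOXC9 and GFP arrays was larger at 6 to 24 h for REL, by 0.60 ± 0.15 (adjusted p = 0.0137), and for PTGS2, by 1.68 ± 0.49 (adjusted p = 0.0257). It was lower at 6 to 24 h for TRAF2, by -0.70 ± 0.13 (adjusted p = 0.00304), for CD83, by -0.88 ± 0.15 (adjusted p = 0.00186), and for TNFAIP6, by -1.32 ± 0.37 (adjusted p = 0.0228). For TNFAIP6 the GFP arrays differed between the sets as well, at 3.14 to 3.92 at 6 to 24 h and 1.16 to 1.94 at the other hours. The call was lost for REL without the 12 h arrays (0.57), for PTGS2 without the 6, 48 or 96 h arrays (1.05, 1.85 and 1.22), and for TNFAIP6 without the 0, 12, 24 or 48 h arrays (down to -1.42) or with 16 units added (-0.16), and the PTGS2 difference was 0.60 with 16 units added. Without the 96 h arrays 10 genes were called, and with SK-N-AS arrays alone 3 were.

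The effect of the transgene label differed between the lines for 17 of the 38 genes and for 7745 of all 17199 genes, a like share. Here the SK-N-AS difference at 0, 48 and 96 h minus the IMR-32 difference was tested in the same fit. It was positive for 14 genes and negative for 3, against 22.5% of all genes in each direction. The positive ones included RELB (1.55 ± 0.12, adjusted p = 2.35e-06), BCL3 (1.94 ± 0.27, adjusted p = 0.000214), TNFAIP2 (1.85 ± 0.19, adjusted p = 2.64e-05) and BIRC3 (3.88 ± 0.49, adjusted p = 0.000111). RELB, BCL3 and TNFAIP2 were each higher in SK-N-AS and lower in IMR-32. These opposite orders, and every sign of this contrast, rest on the SK-N-AS labels, which the HOXC9 probe goes against: with those labels exchanged, RELB, BCL3 and TNFAIP2 would be lower in both lines, and VCAM1 and CSF3 higher in both. It was negative for VCAM1 (-4.49 ± 0.39, adjusted p = 7.75e-06), CSF3 (-2.91 ± 0.64, adjusted p = 0.00389) and CCL2 (-1.57 ± 0.39, adjusted p = 0.00801), and CCL2 was not called without the 0 h arrays (-1.25). VCAM1 and CSF3 were lower in SK-N-AS and higher in IMR-32. With 16 units added, the VCAM1, CSF3 and CCL2 differences were -2.68, -0.47 and -0.79, the last not called.

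In the GFP cultures, SK-N-AS and IMR-32 differed for 29 of the 38 genes, and for 11696 of all 17199 genes. Of the 38 genes, 24 were higher in SK-N-AS GFP arrays, against 38.3% of all genes, and 5 were lower, against 29.7%, and the median difference was 0.92, against 0.13 over all genes. VCAM1 averaged 9.39 ± 0.49 in SK-N-AS GFP and 0.63 ± 0.19 in IMR-32 GFP arrays (SD, n = 6 each), higher by 8.76 ± 0.24 (adjusted p = 2.14e-07). TNFAIP2 averaged 13.60 ± 0.22 and 7.02 ± 0.36 in SK-N-AS GFP and IMR-32 GFP arrays, higher by 6.58 ± 0.16 (adjusted p = 1.24e-07). BCL3 averaged 12.61 ± 0.33 and 6.18 ± 0.21 in these groups, higher by 6.43 ± 0.19 (adjusted p = 3.15e-07). Also higher in SK-N-AS GFP arrays were IL1B (5.05 ± 0.57), IL32 (4.59 ± 0.36), CCL2 (4.12 ± 0.25), NFKBIZ (3.04 ± 0.20) and ICAM1 (2.89 ± 0.58). With 16 units added the VCAM1, IL1B, IL32 and ICAM1 differences were 5.29, 2.29, 2.44 and 0.90. NFKBIE (-0.82 ± 0.14), TRAF1 (-0.49 ± 0.10), CXCL3 (-0.67 ± 0.10), CXCL5 (-0.38 ± 0.14) and CD83 (-2.37 ± 0.14) were lower in SK-N-AS GFP than in IMR-32 GFP arrays.

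With hour, no gene on the array was called in the GFP arrays of either line (0% of all genes; limma, 1 slope per line on log2(1 + h/6)). At an unadjusted p under 0.05, CCL5 had a slope in IMR-32, and NFKB2, BCL3, IL1A, LIF, PTGS2 and CD83 had one in SK-N-AS. In SK-N-AS GFP arrays, LIF was at 5.52, 6.01, 6.16, 5.87, 6.25 and 7.09 from 0 to 96 h, a slope of 0.31 ± 0.07 (adjusted p = 0.452). Without the 48 h arrays, 5 of the 38 genes were called in SK-N-AS. A slope in IMR-32 for CCL5 (0.51 ± 0.20, adjusted p = 1.00) rested on the 96 h array, at 3.21, against 0.42 to 0.48 at the other hours.

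Other genes of the pathway were counted in lists that hold none of the 38. Over all genes, 24.3% were higher and 23.7% lower in SK-N-AS at 6 to 24 h, 18% and 18.2% at 0, 48 and 96 h, and 19% and 20.4% in IMR-32. Of 30 other NF-kB targets, 16 were higher and 1 lower in HOXC9-labelled SK-N-AS arrays at 6 to 24 h, and 17 were higher and 5 lower at 0, 48 and 96 h. In IMR-32 8 were higher and 6 lower. Their median difference was 1.00, 0.70 and 0.11 in the 3 comparisons, against -0.03, -0.01 and -0.01 over all genes. SERPINB2, the plasminogen activator inhibitor of macrophages and keratinocytes, averaged 10.92 in the arrays labelled HOXC9 of 6 to 24 h and 7.63 in the GFP arrays (3.30 ± 0.34), and at 0, 48 and 96 h it averaged 11.71 with the HOXC9 label, against 7.54 with GFP (4.18 ± 0.34). CX3CL1, the membrane-bound chemokine fractalkine, was higher in both SK-N-AS sets, by 2.34 ± 0.13 and 3.17 ± 0.13, and lower in IMR-32, by -2.04 ± 0.09. PTX3, a secreted pentraxin, was higher in all 3 comparisons, by 1.97 ± 0.30, 1.21 ± 0.30 and 2.07 ± 0.22. IL15, a lymphocyte growth factor, was lower in both SK-N-AS sets, by -1.69 ± 0.19 and -1.55 ± 0.19.

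The smaller lists are read against the same shares of all genes, to which several lay near. Of 12 upstream receptors, 4 were higher and none lower in SK-N-AS at 6 to 24 h, 3 were higher and 1 lower at 0, 48 and 96 h, and 5 were higher and 2 lower in IMR-32. TNFRSF12A, the TWEAK receptor, was higher at 6 to 24 h by 3.01 ± 0.27 and differed by 0.30 ± 0.27 at the other hours. TLR3, the sensor of double-stranded RNA, was higher in both SK-N-AS sets, by 1.72 ± 0.22 and 1.83 ± 0.22, and so was TNFRSF1A, the main tumour necrosis factor receptor, by 0.91 ± 0.21 and 0.75 ± 0.21. Of 22 measured adaptors and kinases, 7 were higher and 4 lower at 6 to 24 h, 4 higher and 2 lower at 0, 48 and 96 h, and 4 higher and 5 lower in IMR-32. MYD88, the adaptor of the interleukin-1 and Toll-like receptors, averaged 7.92 in IMR-32 HOXC9 and 4.27 in IMR-32 GFP arrays, higher by 3.65 ± 0.10, and was higher in SK-N-AS at 6 to 24 h by 0.92 ± 0.15. TRAF5 was lower in both SK-N-AS sets, by -1.33 ± 0.08 and -0.49 ± 0.08. Of 14 other inhibitors, 6, 4 and 3 were higher in the 3 comparisons and none, none and 4 lower, with CYLD, a deubiquitinase that restrains the pathway, higher in SK-N-AS by 0.83 ± 0.09 and 0.65 ± 0.09. Of 14 measured receptors for the cytokines described here, 5, 4 and 4 were higher and none, 1 and none lower. IL6R was higher in both SK-N-AS sets by 2.19 ± 0.45 and 1.67 ± 0.45, and LIFR in IMR-32 by 1.39 ± 0.17.

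**Figure D4:**
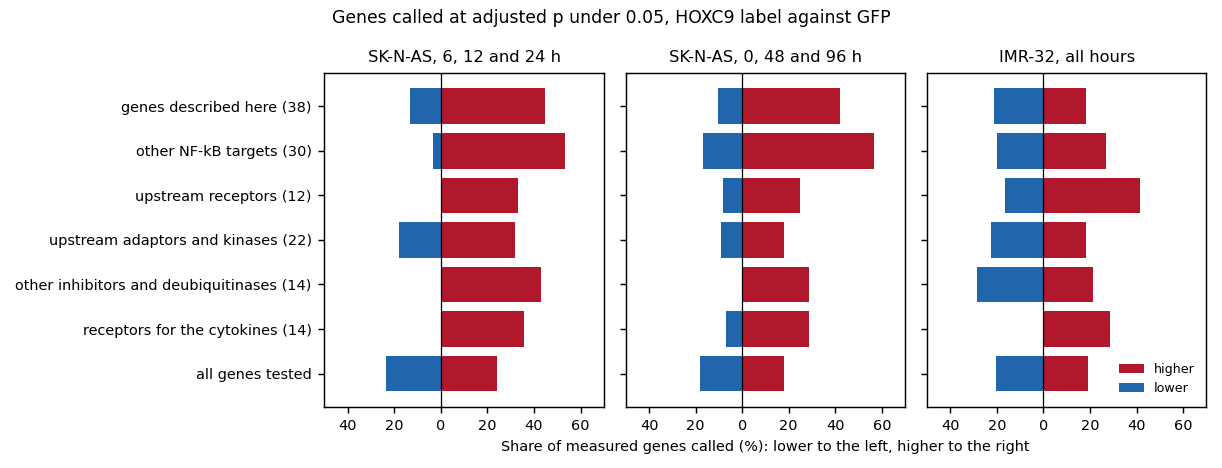
Share of the measured genes of each list (x axis, %) called higher (red, to the right) or lower (blue, to the left) in arrays labelled HOXC9 than in GFP arrays, beside all genes tested, for SK-N-AS at 6, 12 and 24 h, SK-N-AS at 0, 48 and 96 h, and IMR-32; the number of measured genes stands after each list's name. For all genes tested the bars reach 24.3% and 23.7%, 18% and 18.2%, and 19% and 20.4% (higher and lower), and the 38 genes and the 30 other targets reach further to the right than these in the SK-N-AS panels.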

How the data were processed

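The 24 one-colour arrays measured RNA of SK-N-AS and IMR-32 cultures. Per the labels' protocols, RNA was extracted with TRIzol, checked for integrity, amplified and labelled with Cy3. Per the submitters' processing notes limma was used, with no version given. The deposited values are linear intensities that the authors had brought to a common distribution, since arrays differed by at most 0.0723% at any rank, and they run from 1.32 to 309395 units. There are no counts behind these values, and depth is unknown.

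From these values log2 was taken with no offset. Of the probes, 27942 have 1 gene symbol in the platform annotation and 16766 have none. Of 17370 symbols, 2937 were updated through a synonym in RefSeq's table (GRCh38.p14), 129 with several possible updates and 9 not found were kept. The probe with the highest mean stood for a gene. One limma fit (R 4.3.3, limma 3.58.1) of 24 arrays had line-by-hour blocks and 3 transgene effects, for IMR-32, SK-N-AS at 6 to 24 h and SK-N-AS at 0, 48 and 96 h. Differences between effects were contrasts of it. The GFP arrays of both lines were set against each other within hours, and a slope per line was fitted over hours. Tests were two-sided and moderated by eBayes. Levels are given as mean ± SD, differences as difference ± SE.

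The genes and lists were chosen with earlier results of these data known. Named are all of the 39 genes measured and, from each other list, up to 5 called genes per comparison with the largest difference and a brighter arm above log2 7.28 (the 40th percentile of gene means). Not every such gene is described. The SK-N-AS hours were split because the arrays labelled HOXC9 of 6 to 24 h stand apart. The alternatives were an offset of 16 units, centring, other probe choices, a filter on dim genes, another eBayes setting, no block, fewer arrays or hours, and another time scale. One was added after seeing the data, leaving out the SK-N-AS arrays of 6 to 24 h. On simulated data, each with 17199 genes, recovery of 2-fold changes was 61.4% for SK-N-AS at 6 to 24 h, 70.7% at 0, 48 and 96 h, and 78.2% for IMR-32. In these simulations 101, 99 and 110 genes were changed 2-fold, and 99, 101 and 90 were changed 4-fold. Far fewer genes changed there than were called in the data, so these shares do not give the recovery in the data. Promoters were searched with pandas 2.3.3 and numpy 2.4.6 under Python 3.11.15, and matplotlib 3.10.9 drew the figures.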

Additional observations from a re-analysis of the deposited data

Results flagged for a closer look

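On 19 of 152 sets of 6 arrays (38 genes in 4 groups), the level of 1 array stood apart from the others in Dixon's test, and chance alone flags about 1 in 20 such sets. In SK-N-AS arrays labelled HOXC9, IL6 was low at 0 h (3.26) and PTGS2 high at 6 h (5.20). In SK-N-AS GFP arrays, NFKBIZ (9.04) and TRAF2 (12.26) were high and VCAM1 (8.43) was low at 48 h, IL6 was low at 24 h (3.29), and PTGS2 was high at 96 h (2.06). In IMR-32 HOXC9 arrays, CSF1 was low (3.47) and CXCL8 high (1.86) at 12 h, CXCL6 (1.01) and CCL20 (2.56) were high at 6 h, and CCL2 was high at 0 h (6.79). In IMR-32 GFP arrays, IL1A (0.85), CSF3 (0.98) and CCL5 (3.21) were high at 96 h, CSF2 (2.27) and VCAM1 (1.01) at 48 h, and CXCL1 (2.93) and CCL20 (3.64) at 6 h. The SK-N-AS GFP array of 48 h and the IMR-32 GFP array of 96 h were each apart for 3 genes.

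The difference between arrays labelled HOXC9 and GFP arrays varied by hour in SK-N-AS for 5 genes, in the test of the 6 to 24 h difference minus that of 0, 48 and 96 h. These were REL (0.60), TRAF2 (-0.70), TNFAIP6 (-1.32), PTGS2 (1.68) and CD83 (-0.88), on the log2 scale.

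The difference varied by line for 17 genes, in the test of SK-N-AS at 0, 48 and 96 h minus IMR-32. It was positive for NFKB2 (1.83), RELB (1.55), BCL3 (1.94), TRAF1 (0.39), BIRC3 (3.88), IL1A (3.74), CXCL8 (2.76), CCL20 (1.40), ICAM1 (1.91), TNFAIP2 (1.85), TNFAIP6 (3.13), PTGS2 (1.84), SOD2 (0.33) and CD83 (0.84). It was negative for CSF3 (-2.91), CCL2 (-1.57) and VCAM1 (-4.49). For CCL20 the differences within the lines pointed opposite ways, at 0.48 ± 0.33 in SK-N-AS and -0.92 ± 0.23 in IMR-32. Some of the 17 genes lay near background on the IMR-32 arrays, where a difference could hardly be seen. Among these were IL1A (0.41 to 0.85), PTGS2 (0.44 to 0.53) and TNFAIP6 (0.52 to 1.65).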

How the results depend on the processing

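Over 3964 values of the genes under alternatives, 3559 kept their direction and their side of the threshold, 161 lost a call, 65 gained one, 4 reversed, and 175 that were uncalled in both changed sign. With the mean of all probes of a gene, CSF1 in IMR-32 was 0.90, NFKB1 in SK-N-AS at 6 to 24 h -0.88 and TRAF1 at 0, 48 and 96 h 0.69. With an offset of 16 units, IL32 was 0.93 for the difference between lines. These 4 were uncalled before. Leaving out genes under the 40th percentile left 11 of the 38, of which 8 and 7 were called in SK-N-AS at 6 to 24 h and at 0, 48 and 96 h, 5 in IMR-32, 2 for the sets of hours, 6 for the lines and 9 in GFP arrays. SK-N-AS arrays alone gave 3 for the sets of hours (2486 of all genes, against 4820, and 3123 without replicate 2, the 6 h arrays). Leaving out each hour gave 4 to 10 for the sets of hours, 0 to 5 for the SK-N-AS trend (5 of the 38 and 1169 of all genes without the 48 h arrays, and 10 for the sets of hours without the 96 h arrays), 17 to 18 and 16 to 17 for SK-N-AS, 11 to 15 for IMR-32, 13 to 17 for the lines and 25 to 27 in GFP arrays. Except where printed, shares of all genes under these settings are not given, so these counts are no result about the 38 genes.

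With no replicate block the counts were 23 and 21 in SK-N-AS, 14 in IMR-32, 6 for the sets of hours, 17 for the lines and 28 in GFP arrays. The shares of all genes without the block are likewise not given. Deviations from group means correlated at the same hour by -0.074 to 0.169 (SK-N-AS) and 0.159 to 0.408 (IMR-32). Of 12 arrays each, 3 of SK-N-AS and 6 of IMR-32 correlated best with their own hour. The causes of these changes were not tested. Low signal is a further limit: 16 of the 38 genes lie below the array median in every group, and 7 of those lie below the lower quartile. Genes outside the 16 can also be near background in 1 line. BIRC3 and VCAM1 averaged 0.80 and 0.63 in IMR-32 GFP arrays.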
